A study of Mus musculus with 9 samples.

Results

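The genes described here are 39 mouse genes of mitosis, among them both B-type cyclins, taken as a fixed list from the 21887 protein-coding genes of the RefSeq annotation. They were chosen by name, with earlier results of these data known, and no measured value served as a cut-off. A gene was said to carry a mark when a deposited peak lay within 1 kb of either annotated end of the gene. The study profiled chromatin by CUT&Tag, in which a transposase tethered to an antibody cuts and tags the DNA beside the bound protein, in stem and progenitor cells sorted from the bone marrow of 12-week-old C57BL/6 mice. Its question was where the chromatin protein DEK is found and how marks of active chromatin compare with and without the Dek gene. All mice carried Dek fl/fl, a Dek gene flanked by loxP sites. The control mice (fl) had no Cre, and the deleted mice (cKO) also carried Tie2-Cre. The Tie2 promoter is active in endothelial as well as blood cells, so the deletion is not limited to the sorted cells, and how completely Dek was lost was not analysed here. H3K4me3 and H3K27ac were profiled in about 50000 LSK cells (Lin- Sca-1+ c-Kit+), a gate that holds stem cells and early progenitors, and H3K9ac in about 20000 haematopoietic stem cells (HSC, the LSK cells that are also CD48- and CD150+). Each of these 3 marks has 1 fl and 1 cKO library, so no difference between genotypes below has a replicate check. DEK was profiled in 3 libraries of fl HSC, and nothing in the labels says whether they came from separate animals.

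Entry into mitosis is driven by CDK1 bound to cyclin B, after which Polo and Aurora kinases, the kinetochore, the spindle and the anaphase promoting complex carry the chromosomes through separation and the cell through cytokinesis. Most adult HSC are out of cycle, whereas many progenitors in the LSK gate divide. Genes of mitosis are known to be held off in resting cells by the DREAM complex and switched on in G2 by MYBL2 and FOXM1, through promoter elements named the cell cycle genes homology region (CHR) and the CCAAT box, the site of NF-Y. H3K4me3 marks promoters that are active or ready, and H3K27ac and H3K9ac are acetylation marks of active promoters and enhancers.

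The promoters of 6 mitosis genes, picked by name, are shown. Ccna2 and Aurkb were picked too, but no promoter sequence was given for them. Each of the 6 holds at least 1 of these elements and carries the H3K4me3 peaks described below at its start, as do other members. Each runs 5′ to 3′ on the gene's strand, from 250 bases before the annotated start to 50 after it, as given by RefSeq for GRCm38.p6 (the mm10 coordinates), and capitals mark the CHR letters TTTGAA and the CCAAT box, which reads ATTGG where it lies on the other strand.
Ccnb2, chr9:70421505-70421804 (-): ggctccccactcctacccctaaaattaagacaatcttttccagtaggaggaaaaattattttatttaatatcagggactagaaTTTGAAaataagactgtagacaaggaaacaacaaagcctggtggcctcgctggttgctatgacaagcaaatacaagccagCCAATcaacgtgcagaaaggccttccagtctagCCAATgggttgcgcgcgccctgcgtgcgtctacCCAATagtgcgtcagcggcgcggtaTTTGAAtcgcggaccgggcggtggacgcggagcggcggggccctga
Ccnb1, chr13:100786437-100786736 (-): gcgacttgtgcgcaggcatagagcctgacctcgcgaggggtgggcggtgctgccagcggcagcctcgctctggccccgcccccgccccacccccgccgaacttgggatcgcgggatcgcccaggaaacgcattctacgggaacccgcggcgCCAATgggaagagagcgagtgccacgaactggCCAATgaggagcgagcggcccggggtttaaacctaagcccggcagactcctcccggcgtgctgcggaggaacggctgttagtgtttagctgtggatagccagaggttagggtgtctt
Cdk1, chr10:69352863-69353162 (-): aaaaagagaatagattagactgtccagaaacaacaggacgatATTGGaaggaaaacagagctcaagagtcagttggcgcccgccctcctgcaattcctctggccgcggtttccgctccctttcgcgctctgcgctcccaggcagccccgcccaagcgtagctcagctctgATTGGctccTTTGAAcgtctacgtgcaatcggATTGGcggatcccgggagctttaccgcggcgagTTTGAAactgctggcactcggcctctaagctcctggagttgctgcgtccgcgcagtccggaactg
Plk1, chr7:122159185-122159484 (+): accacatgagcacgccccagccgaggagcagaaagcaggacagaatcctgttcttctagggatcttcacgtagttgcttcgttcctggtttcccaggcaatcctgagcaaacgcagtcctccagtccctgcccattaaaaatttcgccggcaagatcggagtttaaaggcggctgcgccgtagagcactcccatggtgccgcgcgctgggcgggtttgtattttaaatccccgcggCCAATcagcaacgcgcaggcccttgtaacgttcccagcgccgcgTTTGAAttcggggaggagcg
Cenpa, chr5:30666636-30666935 (+): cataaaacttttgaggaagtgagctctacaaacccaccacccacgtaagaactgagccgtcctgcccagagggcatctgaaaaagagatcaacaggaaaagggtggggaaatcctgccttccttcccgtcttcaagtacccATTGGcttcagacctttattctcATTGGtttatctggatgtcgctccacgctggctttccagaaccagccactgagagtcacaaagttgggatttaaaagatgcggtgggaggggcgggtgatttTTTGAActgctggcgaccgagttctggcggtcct
Cdc20, chr4:118437294-118437593 (-): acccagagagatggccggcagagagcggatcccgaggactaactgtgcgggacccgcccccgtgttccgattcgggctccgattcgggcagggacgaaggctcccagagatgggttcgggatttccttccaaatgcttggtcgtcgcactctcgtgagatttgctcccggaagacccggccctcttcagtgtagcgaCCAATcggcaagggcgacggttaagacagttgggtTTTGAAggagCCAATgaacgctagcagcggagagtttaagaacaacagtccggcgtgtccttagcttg

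The start of the gene is base 251 in each window, and a site's distance is that of its first base. Ccnb2, the cyclin B2 gene, held 3 CCAAT boxes at -87, -54 and -21 bp and a CHR match at 4 bp, with another CHR match at -167 bp. Ccnb1, the cyclin B1 gene, held 2 CCAAT boxes and no TTTGAA letters in its window, which says only that these letters are not there. Cdk1, the kinase that cyclin B activates, held 2 CHR matches and 3 CCAAT boxes.

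A window was given for 33 of the 39 genes, and both strands were searched. Ect2 and Prc1 have 2 annotated starts each, and a gene counted when any of its windows held the letters. TTTGAA was found at 22 of the 33 (66.7%), against 18.5% of all 17492 genes with windows of this length and 13.2% of those that carried a fl H3K4me3 peak. The CHR variant TTCGAA was found at 4 (12.1%, all genes 2.13%), at Cdc25b, Bub1, Bub1b and Top2a. CCAAT was found at 25 (75.8%, all genes 42.3%), and 20 genes (60.6%) held both CHR and CCAAT in 1 window, against 7.40% of all genes and 5.75% of those with H3K4me3. The 29 distinct CHR matches lay from -179 to 40 bp (median -15.0 bp), and 52 of the 55 distinct CCAAT boxes lay upstream of the start (median -68.0 bp). For Ect2 and Prc1 these distances are from the start farthest upstream. These are matches of letters and not measured binding. The 6 genes without a window were Ccna2, Cdc25c, Aurkb, Tpx2, Kif20a and Smc4.

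The peak lists behind the values below differed in length. H3K4me3 had 10514 peaks in fl and 10159 in cKO, H3K27ac 10494 and 16331, H3K9ac 2172 and 3431, and the DEK lists 2054, 2111 and 6147. Sequencing depth is unknown because only peaks were listed, and a longer list cannot be told apart from deeper sequencing or lower background. Markers of the sorted cells were present: 11 of 15 HSC and LSK markers carried H3K4me3 in fl and 11 in cKO, Kit, Cd34 and Flt3 among them, while Ly6a (Sca-1) and Slamf1 (CD150), which define the gates, carried it in neither list. Of 14 markers of mature blood cells 1 carried H3K4me3 in fl (Klf1) and 3 in cKO, and of 9 endothelial and stromal markers 0 in either.

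**Figure D1:**
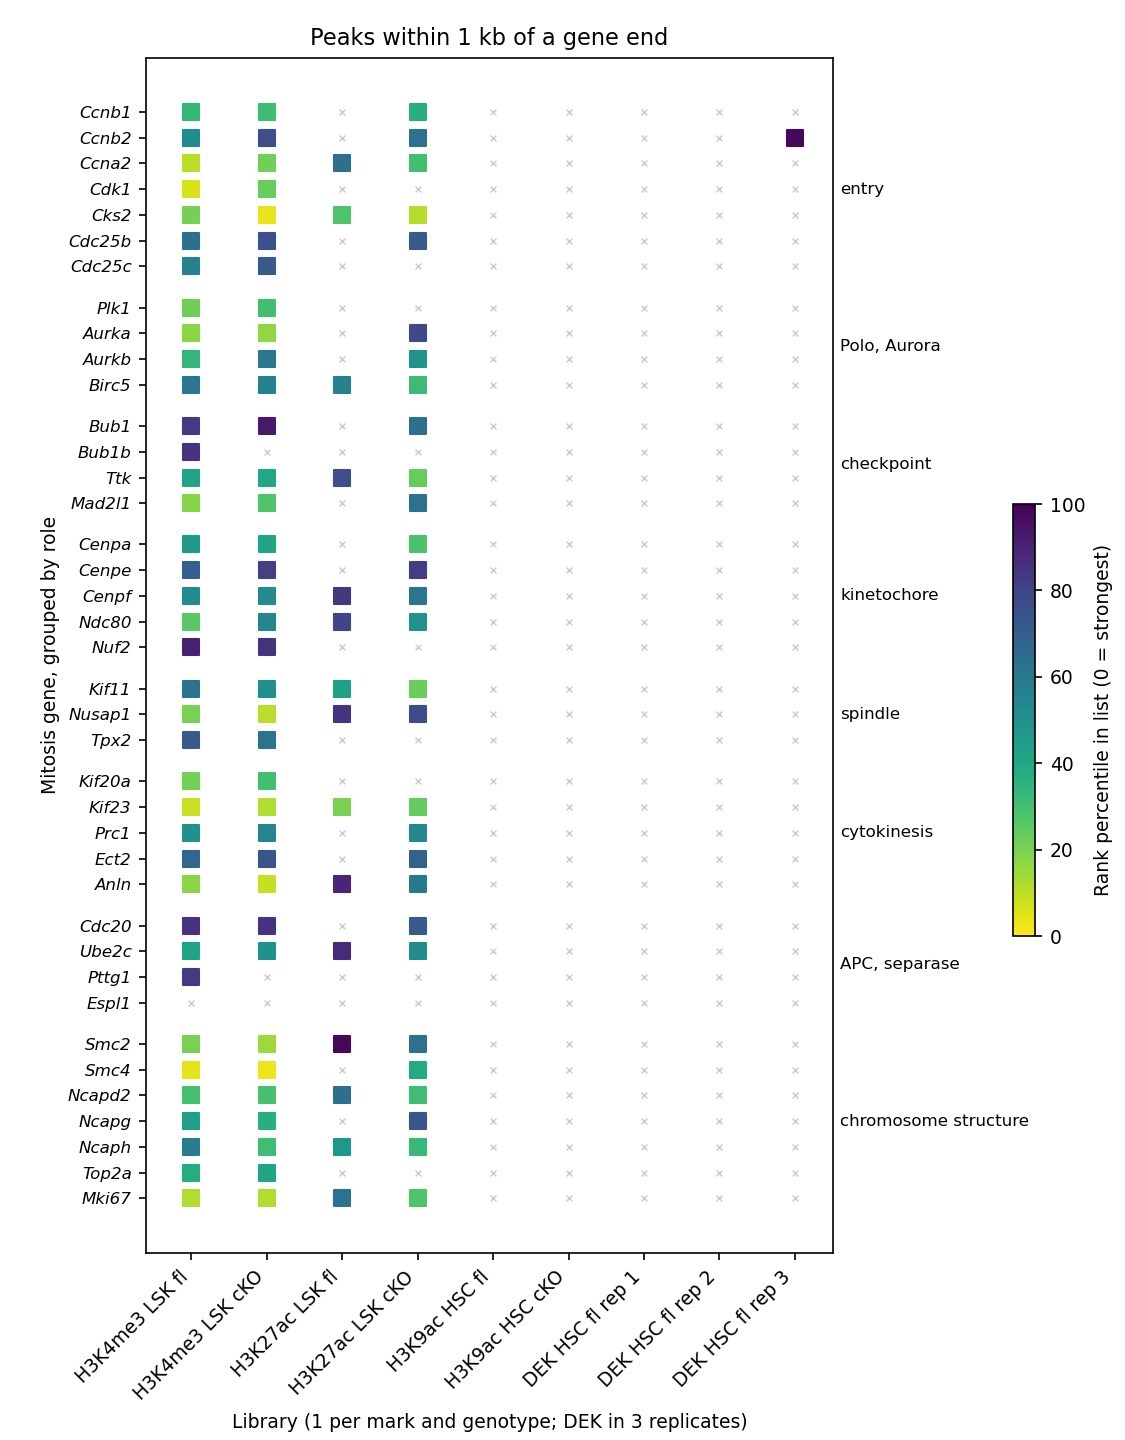
Peaks within 1 kb of an end of each of the 39 mitosis genes (rows, grouped by role) in the 9 libraries (columns). Squares are peaks, coloured by rank percentile within their own list by −log10 q (0 the strongest, 100 the weakest), and grey crosses mark no peak: H3K4me3 fills nearly every row, H3K27ac fills 15 rows in fl and 29 in cKO, H3K9ac fills none, and DEK has 1 square, at Ccnb2 in replicate 3.

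H3K4me3 was present at nearly all mitosis genes in both genotypes. It marked 38 of 39 in fl (97.4%, 95% exact binomial interval 86.5 to 99.9), against 43.8% of all genes, and 36 in cKO (92.3%, 79.1 to 98.4), against 42.7%. The intervals here and below cover counting error only. All 36 genes of the cKO list were also in the fl list. Bub1b (BUBR1, a spindle checkpoint kinase-like protein) and Pttg1 (securin, the inhibitor of separase) carried the mark in fl only, against 2.75% of all genes. Both fl peaks were weak, at rank percentiles of 85.8 and 83.5 in their list. None was in cKO only (0 of 39, against 1.59% of all genes). Espl1, which encodes separase, the protease that cleaves cohesin at anaphase, was marked in neither list. The nearest H3K4me3 peak lay 1546 bp from its span in fl and 1714 bp in cKO, over the end of its neighbour Pfdn5.

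The mark sat at the start of these genes and was not unusually strong. For all 32 members with a fl peak and a known start the best-ranked peak was at that start, and in 28 it covered the start base. The summit lay a median of 135.5 bp downstream, against 172.0 bp for 7813 genes in all. The median rank percentile of the members was 42.1 in fl (4.19 to 90.8), against 42.9 for all genes with the mark, and 40.6 in cKO, against 43.3. By fl rank the strongest were Smc4, a condensin ATPase that helps compact chromosomes, at 4.19 in fl and 2.51 in cKO, and Cdk1 at 6.06 and 23.4. Kif23, a kinesin of the midzone between separating chromosomes, stood at 8.27 and 11.9, and Ccna2 (cyclin A2) at 10.5 and 21.5. The weakest in fl was Nuf2, a kinetochore subunit, at 90.8. Its partner Ndc80 stood at 26.0, so subunits of 1 complex spanned most of the range. Peaks of 9 members were shared with a neighbouring gene whose end lay within the same window (23.7%, all genes 29.8%): Ccna2 with Bbs7, Aurka with Cstf1, Ndc80 with Spdya, Nusap1 with Oip5, Kif20a with Brd8, Prc1 with Rccd1, Anln with 9530077C05Rik, Smc4 with Ift80 and Ncapd2 with Mrpl51. For these the mark cannot be assigned to either gene.

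Within-list ranks of H3K4me3 lay close together in the 2 genotypes for most members. Of the 36 in both lists, 22 (61.1%) kept within 10 percentile points, against 63.9% of all genes, and the median distance between the 2 percentiles was 7.91 points, against 7.05. Ccnb2 stood at 52.3 in fl and 76.2 in cKO, Ndc80 at 26.0 and 53.6, and Aurkb, the kinase of the chromosomal passenger complex, at 34.1 and 60.4. In the other direction Ncaph, a condensin subunit, stood at 58.6 and 30.8 and Cks2, a small CDK-binding protein, at 21.0 and 3.39. These values describe each list and carry no test.

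H3K4me3 peaks of the members were wider than the median gene's in cKO. The median was 906.0 bp in cKO (95% interval of the median 828.0 to 1033), against 805.0 bp for all genes. In fl it was 889.0 bp (796.0 to 1090), against 843.0 bp, which lies inside the interval. Genes were also split into 5 classes by fl H3K4me3 rank. The members' cKO median was then lower than that of all genes in the strongest class (971.0 and 1038 bp) and higher in every other class. In fl it was lower in the third class (844.5 and 856.0 bp) and the weakest (522.0 and 534.0 bp), and higher in the rest. The widest was that of Smc4 at 1947 and 1644 bp. Among the 36 members in both lists 26 (72.2%) had the narrower peak in cKO, against 62.8% of all genes, with a median difference of -76.5 bp (cKO minus fl), against -39.0 bp. The 9 with a wider cKO peak included Aurka, the centrosomal Aurora kinase (1356 and 1547 bp), Cenpe, a kinetochore kinesin (726.0 and 1033 bp), and Ube2c, an E2 enzyme of the anaphase promoting complex (612.0 and 931.0 bp).

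**Figure D2:**
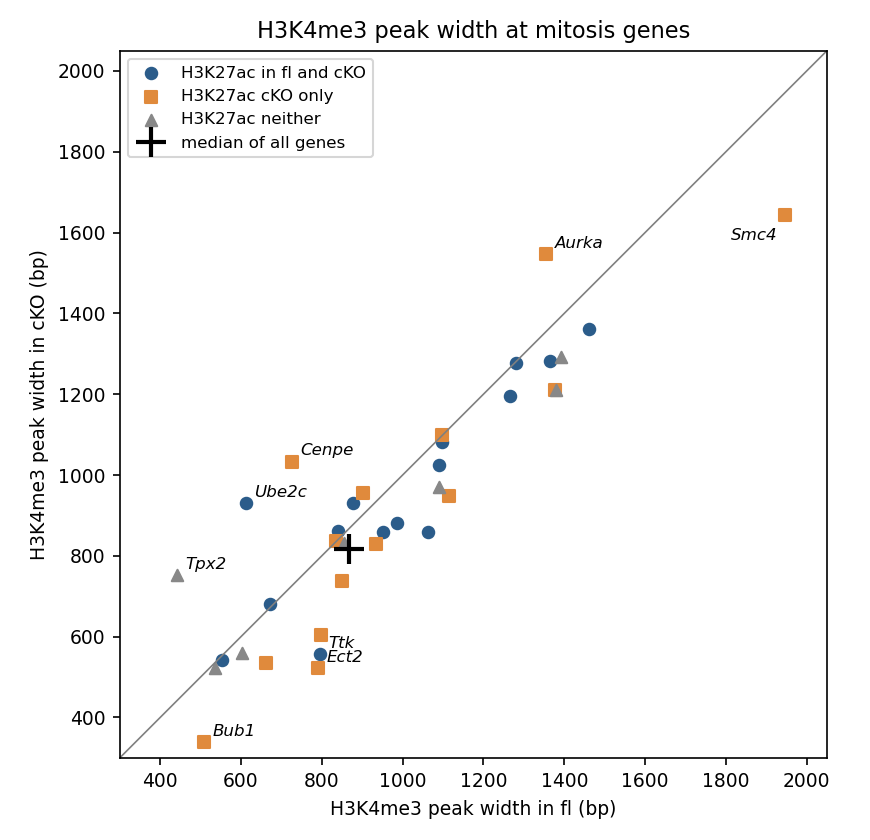
Width of the H3K4me3 peak in fl (x axis, bp) and in cKO (y axis, bp) for the 36 mitosis genes with a peak in both lists, 1 library per genotype; symbols give the gene's H3K27ac class, the line marks equal width and the cross the median of all genes. Of the 36 genes 26 lie below the line, with Aurka, Cenpe, Ube2c and Tpx2 among the 9 above it.

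H3K27ac differed far more between the lists. It marked 15 of the 39 mitosis genes in fl (38.5%, 23.4 to 55.4), against 21.9% of all genes, and 29 in cKO (74.4%, 57.9 to 87.0), against 42.5%. All 15 fl genes were also in the cKO list. Another 14 carried H3K27ac in cKO only (35.9%, 21.2 to 52.8), against 20.9% of all genes, and 0 in fl only, against 0.384%. The remaining 10 carried it in neither. Peaks of 6 of the 15 in fl (40.0%, all genes 33.2%) were shared with a neighbouring gene. In cKO this held for 9 of the 29 (31.0%, all genes 27.5%), with Aurka, Prc1 and Smc4 among those in cKO only. For shared peaks the mark cannot be assigned to either gene. Markers of cell types moved with the lists: H3K27ac was at 1 of 15 HSC and LSK markers in fl and 8 in cKO, at 1 and 2 of 14 markers of mature blood, and at 0 and 2 (Kdr and Cxcl12) of 9 endothelial and stromal markers. Their part in the members' counts was not tested.

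Both B-type cyclins were among the 14. Ccnb1 had no fl H3K27ac peak within 34112 bp, and in cKO a peak of 615.0 bp at chr13:100786161-100786775, from -289 to 325 bp of its start, where its fold enrichment was 12.0, its −log10 q 23.3 and its rank percentile 37.2. Ccnb2 had no fl peak within 81515 bp, and in cKO a peak of 360.0 bp at chr9:70421251-70421610, where its fold was 10.0, its −log10 q 13.8 and its rank percentile 63.1. Folds and q-values are the authors' own and serve only to place a peak within its list. The Ccnb2 peak ran from -56 to 303 bp of the start, over the CCAAT boxes at -54 and -21 bp and the CHR at 4 bp printed above. Ccnb2 is 1 of the genes that work on DEK in these cells names, so its presence here is not independent of the study. Of the other genes of mitotic entry, Cdc25b, a phosphatase that activates CDK1, was in cKO only. Ccna2 and Cks2 were in both lists, and Cdk1 and Cdc25c in neither.

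The Polo and Aurora group had Aurka and Aurkb in cKO only, Birc5 (survivin, a passenger complex subunit) in both, and Plk1 in neither. Of the spindle checkpoint genes Bub1 and Mad2l1 (MAD2) were in cKO only, Ttk (the kinase MPS1) in both and Bub1b in neither. At the centromere Cenpa, the histone H3 variant that marks it, had the highest-ranked cKO peak of the 14 (rank percentile 28.2, fold 14.9), and no fl peak within 194718 bp. Cenpe was in cKO only as well, Cenpf and Ndc80 in both and Nuf2 in neither. Of the spindle genes Kif11 (the motor Eg5) and Nusap1 were in both and Tpx2, an activator of Aurora A, in neither. For cytokinesis Prc1, a bundler of midzone microtubules, and Ect2, the exchange factor for RhoA, were in cKO only, Kif23 and Anln (anillin) in both and Kif20a in neither. Cdc20, an activator of the anaphase promoting complex, was in cKO only, Ube2c in both, and Pttg1 and Espl1 in neither. Among genes of chromosome structure Smc4 and Ncapg were in cKO only. Smc2, Ncapd2, Ncaph and Mki67 (Ki-67) were in both, and Top2a (topoisomerase II) in neither. Smc4 is a marginal case, since a fl peak with a −log10 q of 6.11 lay 1199 bp from its end, just outside the window.

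The count of cKO-only genes depends on the length of the lists. When the cKO list was shortened to the length of the fl list by −log10 q, 8 of the 14 remained in cKO only: Ccnb1, Ccnb2, Aurkb, Bub1, Mad2l1, Cenpa, Prc1 and Smc4. These are 20.5% of the 39 members (9.30 to 36.5), against 11.0% of all genes and 22.1% of genes with fl H3K4me3. The share is thus near that of genes with H3K4me3. Nusap1, whose peak lies between it and Oip5, was then in fl only, against 1.93% of all genes.

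Set beside genes with H3K4me3 of similar rank, the mitosis genes did not stand apart beyond counting error. All genes with a fl H3K4me3 peak were placed in 5 classes by rank, and their shares were weighted to the classes of the 38 members. H3K27ac in cKO only was found at 36.8% of the members (21.8 to 54.0), where the weighted share of all genes was 33.3%. The difference of 3.50 percentage points turned to -1.60 with a window of 5 kb and to -1.52 with lists of equal length. The mark was in both lists at 39.5% (24.0 to 56.6), where all genes gave 47.8%, and in neither at 23.7% (11.4 to 40.2), where all genes gave 18.3%. Each weighted share lay inside the members' interval, so no difference was detectable with 38 genes. Over the settings tried, the difference for both lists stayed negative (-9.83 to -6.51 points). The difference for neither list stayed positive (0.810 to 11.2 points). By class, 3 of the 5 members with the strongest H3K4me3 had H3K27ac in both lists (all genes 66.1%). In the weakest class it was 0 of 6 (22.4%), and 4 of those 6, Bub1b, Nuf2, Pttg1 and Tpx2, had it in neither (36.1%). Cdk1 was the 1 member of the strongest class with H3K27ac in neither list, and it had no H3K27ac peak within 99478 bp in fl or 45876 bp in cKO. In that class 8.29% of all genes had H3K27ac in neither list.

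**Figure D3:**
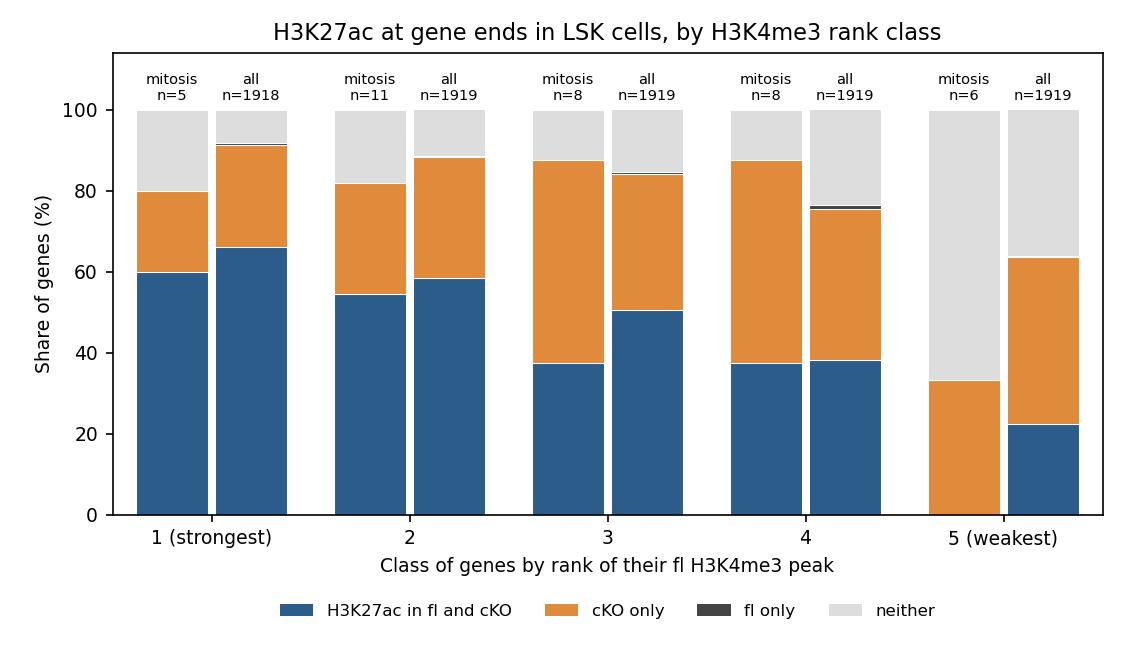
Share of genes (y axis, %) with an H3K27ac peak at an end in both genotypes, in cKO only, in fl only or in neither, for 5 classes of genes by the rank of their fl H3K4me3 peak (x axis), with mitosis genes on the left and all genes on the right of each pair and the number of genes above each bar. In both sets the share with H3K27ac in both lists is lower in the weaker classes, from 60.0% to 0% of mitosis genes and from 66.1% to 22.4% of all genes.

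Where both genotypes had H3K27ac at a mitosis gene, the fl and cKO peaks overlapped at all 15. The cKO peaks of these 15 ranked higher in their list (median percentile 32.0) than those of the 14 cKO-only genes (63.3). Over all genes the medians were 31.1 and 62.8. The highest-ranked in cKO was that of Cks2 (11.3), but it lay at the 3′ end of the gene, within 1 kb of an end of Secisbp2, and apart from the H3K4me3 peak at the Cks2 start. It overlapped a weaker H3K4me3 peak there (−log10 q 23.0 in fl and 21.8 in cKO), which made Cks2 the 1 member with H3K27ac over an H3K4me3 peak other than its best-ranked. With every H3K4me3 peak counted, H3K27ac overlapped H3K4me3 at 15 of 15 members in fl and 29 of 29 in cKO. The next was Kif11 at 22.9.

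Peaks of H3K27ac at mitosis genes were narrower than those of all genes in the cKO list. Their median rank percentile was 51.8 over 29 members (interval 32.0 to 63.1, which holds the 44.1 of all genes). The median width was 439.0 bp (95% interval of the median 391.0 to 542.0), against 547.0 bp for all genes. It was 462.0 bp at the 15 genes marked in both genotypes (all genes 602.0 bp) and 391.5 bp at the 14 marked in cKO only (481.0 bp), the groups whose median ranks are given above. By H3K4me3 class the members' median width was higher than that of all genes in the strongest class (744.0 and 689.0 bp) and lower in the other 4. H3K27ac ranks differed there too, with a median percentile of 59.6 in the second class, against 35.0, so these classes set lower-ranked peaks against higher-ranked ones. In fl the medians were 355.0 bp over 15 members and 385.0 bp over all genes.

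**Figure D4:**
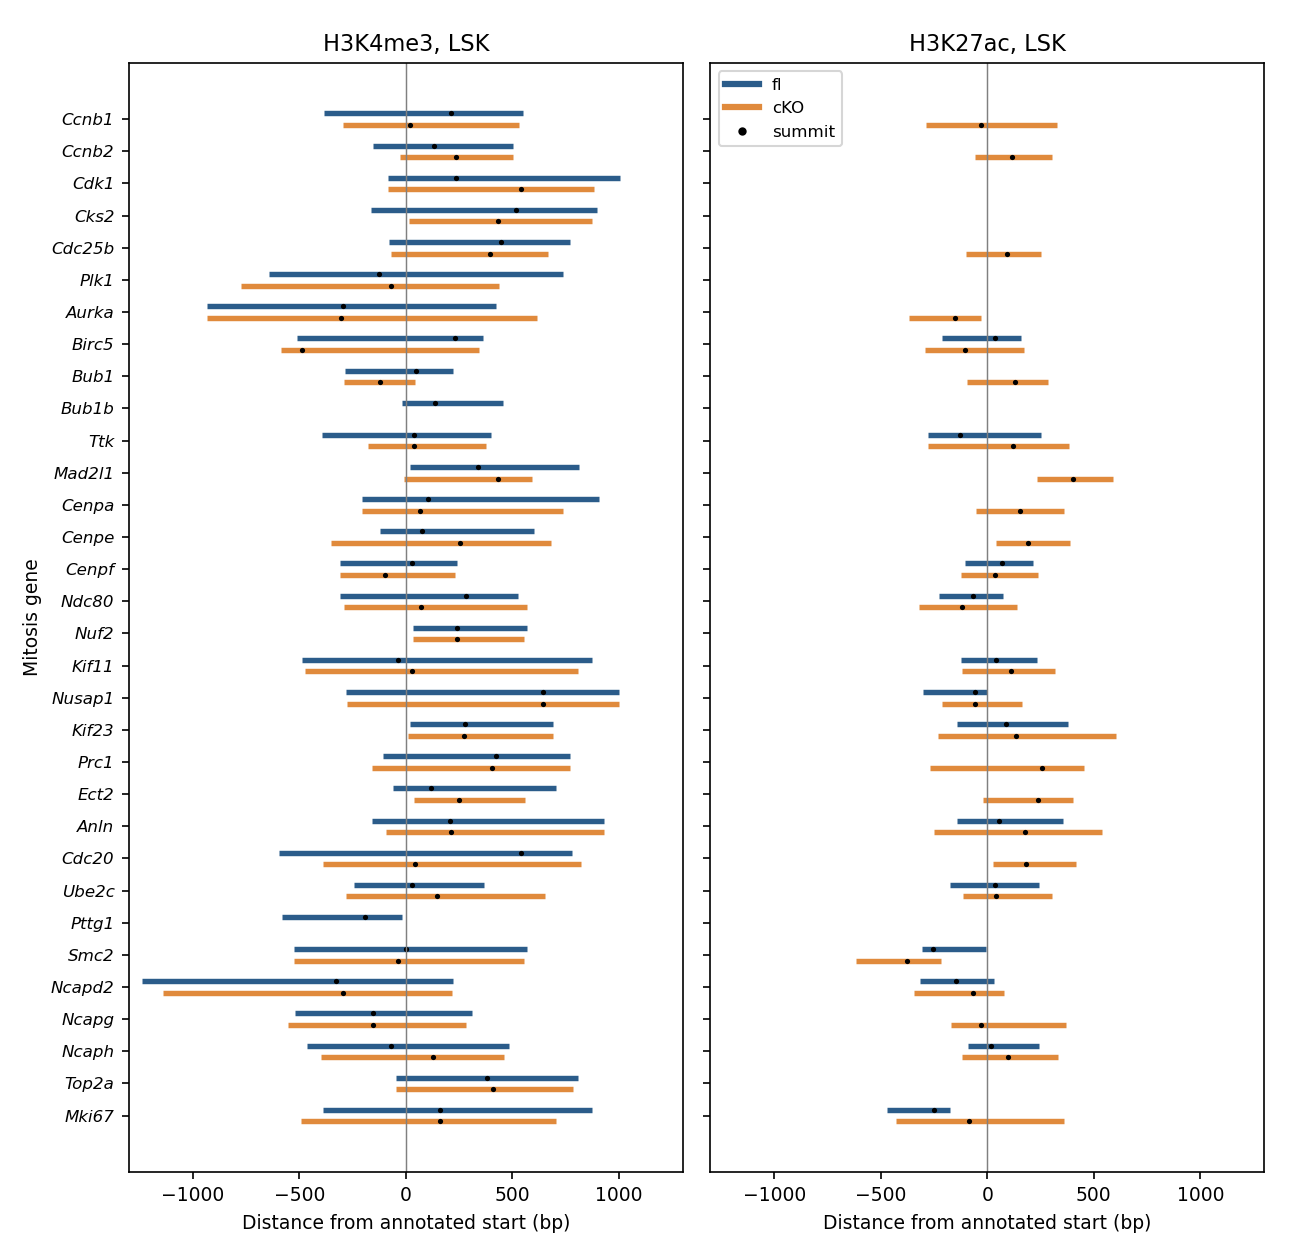
Extent of the H3K4me3 (left) and H3K27ac (right) peak of each mitosis gene with a known start, in fl and cKO, by distance from the annotated start (x axis, bp; negative is upstream); black dots are peak summits. The H3K27ac bars overlap the H3K4me3 bars of the same gene, and 12 of the 25 genes drawn with cKO H3K27ac lack a fl bar; genes without a known start and the 3′ peak of Cks2 are not drawn.

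The promoter elements were found in every H3K27ac class. CHR letters were at 10 of 14 genes marked in both genotypes, 7 of 12 of those in cKO only and 5 of 7 of those in neither. For CCAAT the counts were 9, 11 and 5.

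Of the wider machinery of mitosis, 104 other genes were counted the same way. H3K4me3 marked 100 of them in fl (96.2%, all genes 43.8%) and 95 in cKO (91.3%, all genes 42.7%). H3K27ac marked 48 in both (46.2%, 36.3 to 56.2), against 21.5% of all genes and 47.1% of those with fl H3K4me3. It marked 28 in cKO only (26.9%, 18.7 to 36.5), against 20.9% and 33.4%, and 0 in fl only. Against genes with H3K4me3 both shares are near the background. At equal list lengths 19 were in cKO only (18.3%, 11.4 to 27.1), against 11.0% of all genes and 22.1% of those with fl H3K4me3. Another 5, Ensa, Nsl1, Pmf1, Oip5 and Spag5, were in fl only (4.81%, 1.58 to 10.9), against 1.93% and 3.43%. Oip5 shares the fl peak of the member Nusap1, so Oip5 and Nusap1 are not separate cases. Among 15 genes of the DREAM, MuvB, NF-Y and FOXM1 regulators 14 carried H3K4me3 in each list. For H3K27ac 6 of the 15 were in both and 6 in cKO only (40.0%, 16.3 to 67.7), an interval that holds the 20.9% of all genes and the 33.4% of genes with fl H3K4me3. The 6 in cKO only included Foxm1 and Mybl2, the activators of G2 genes, and Lin9, a MuvB subunit. At equal list lengths the same 6 were in cKO only. The share of all genes was then 11.0%, outside the interval, and that of genes with fl H3K4me3 22.1%, inside it.

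H3K9ac was found at none of the 39 mitosis genes: 0 in fl, against 0.658% of all genes, and 0 in cKO, against 1.06%. Genes in 1 H3K9ac list only were 0.608% of all genes for fl and 1.01% for cKO. With such short lists, absence at 39 genes is near the background. Peaks inside the gene and away from its ends were seen in cKO at Nuf2 (−log10 q 5.56), Ect2 and Mki67 (1.70 each). No share of all genes is given for such peaks. Of the 104 other mitosis genes 1, Racgap1, had a fl H3K9ac peak at an end (0.962%, −log10 q 1.64), and 0 had one in cKO.

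DEK was found at 1 of the 39 mitosis genes, in 1 library. The counts in replicates 1 to 3 were 0, 0 and 1 of 39 (mean 0.333 ± 0.577, SD, n = 3), against 0.288%, 0.306% and 0.690% of all genes, and 1.21% in any library. With 39 genes, a count of 1 is near the background. The gene was Ccnb2. Its DEK peak, at chr9:70420956-70422188 in replicate 3, covered the start of the gene and both the H3K4me3 peaks and the cKO H3K27ac peak. The peak was among the weakest of its list, rank 6006 of 6147, its fold being 3.58 and its −log10 q 2.04. At 1233 bp it was also wide. The 1126 other rows of that list with the same p-value had a median width of 212.0 bp, and the widest of them had 1192 bp. Row names within the replicate 3 list carry the stem Flag where those of the other DEK lists carry DEK, so the antibody of that library is not certain, and the label was followed. Of the 104 other mitosis genes 1, Ska1, a spindle and kinetochore subunit, had a DEK peak at an end in replicate 3 (fold 7.19). That count is near the share of all genes in replicate 3 (0.690%), and replicates 1 and 2 had 0.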

How the data were processed

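CUT&Tag peak lists of 9 libraries in 7 groups were used: DEK in fl HSC (3 libraries), H3K9ac in HSC, and H3K27ac and H3K4me3 in LSK cells (1 library per mark and genotype). Bowtie2, Picard and MACS2 were used with mm10, per the submitters' processing notes. Versions, the threshold and any control are not named here, being not given in the sources used. Peaks were called per library, since the authors deposited 1 list for each. The deposited score, the deposited fold (a ratio over the caller's background) and the −log10 p-value and −log10 q-value are the authors' own, used only to rank or filter within a list. From these lists, 16 mitochondrial rows and 11 DEK rows that broke the format were left out. Of the 11 rows, 0 lay at a mitosis gene, and these checks were set up with the rows in view.

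Gene spans came from NCBI RefSeq (GRCm38.p6). A peak counted when it overlapped a window of 1 kb around either gene end by at least 1 bp, and the best-ranked peak by −log10 q stood for the gene. Rank percentile is rank over list length. Starts and strand came from the RefSeq promoter table, which held 33 of the 39 genes. All 196 listed genes were found in the gene table. Shares carry 95% exact binomial (Clopper-Pearson) intervals, which cover counting error only. No test between genotypes was run. The mapping and format checks were tested on simulated data. The members, lists and motifs were chosen with earlier results of these data known. All members may be named. Genes of other lists could be named where they had a DEK or H3K9ac peak, a peak in 1 genotype only, or mark the sorted cells. Alternatives changed the threshold, window, list length, rank measure, classes, overlap and replicates. The software was Python 3.11.15, pandas 2.3.3, numpy 2.4.6, matplotlib 3.10.9 and scipy 1.17.1.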

Additional observations from a re-analysis of the deposited data

How the results depend on the processing

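Of 142 values under alternatives, 129 stayed within 1.5 times the reported count or within the stated error. Among these, the members' share of H3K27ac in cKO only minus the weighted share of all genes (3.50 points) turned sign, to -1.60 with a window of 5 kb and -1.52 with lists of equal length. The other 13 follow. With only peaks of −log10 q 10 or more, H3K27ac marked 4 mitosis genes in fl and 24 in cKO only. Genes of similar H3K4me3 rank had a like pattern at this cut-off. Of the 33 members with a fl H3K4me3 peak 66.7% were in cKO only, where the weighted share of all genes was 60.3%. In both lists were 12.1%, where all genes gave 19.1%. With lists of equal length 8 were in cKO only and 1 in fl only. H3K4me3 in fl only fell to 1 gene at that threshold and to 1 with a window of 500 bp. Over the whole gene span H3K9ac marked 3 genes in cKO, all 3 in cKO only. The share of all genes over the whole span is not given here, so this count has no background. The cKO H3K9ac list is also the longer, with 3431 peaks against 2172. The DEK count in any library was 0 at thresholds of 5 and 0 at 10 on −log10 q, 2 with a window of 5 kb and 2 over the whole gene span. Both wider settings added Ect2, through different replicate 3 peaks. The peak within 5 kb had a −log10 q of 11.1, and the peak inside the gene 2.04. Shares of all genes for these wider settings are not given here. Leaving out each DEK library in turn gave 0 to 1, and without replicate 3 the count was 0. No paired analysis was possible because each mark has 1 library per genotype and the DEK replicate numbers belong to 1 group. Read depth is unknown, so no absent peak shows an absent mark.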
